A study of Mus musculus with 2 samples.

Results

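The platelet-derived growth factor (PDGF) and Kit systems were examined as 8 genes: the receptors Pdgfra, Pdgfrb and Kit, the PDGF ligands Pdgfa, Pdgfb, Pdgfc and Pdgfd, and the Kit ligand gene Kitl. Members were all probe sets that the array's platform annotation assigns to one of these symbols alone, which gave 20 probe sets for the 8 genes among 18193 genes named on the array. The study compared 2 samples of mouse cells on Affymetrix 3' expression arrays. Both came from A2lox.Mesp1 embryonic stem cells (129/Ola background), a line in which doxycycline (dox) turns on a Mesp1 transgene, and the untreated cells carry that transgene too. The dox sample was exposed to the drug at 250 ng/mL in embryoid body culture, starting on day 2 and ending on day 4, and the no dox sample was not. On day 5 cells positive for both Flk1 (encoded by Kdr) and Tie2 (encoded by Tek) were sorted from each culture. Any cell with both receptors on its surface could enter the sort.

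With 1 array per condition there was no replicate, no test and no p-value, and each difference below compares 2 arrays. Values are signals as deposited, in arbitrary units, which ran from a floor of 1 to 22539 with dox and 22018 without. Differences are dox minus no dox on the scale log2(signal + 16), which understates the change of dim probe sets. A gene was read from the probe set whose signal, averaged over the arrays, was highest (its brightest). It was counted when the brighter signal reached the median of its array, 127 with dox or 112 without (the signal filter). The spread available within the arrays was that between probe sets of the same gene, an SD of 0.38 log2 units. It was 0.26 for probe sets with a mean signal of 500 or more and 0.48 for dimmer ones, and it holds nothing of the variation between cultures. Mesp1 had a signal of 10977 with dox and 2433 without, whereas Kdr (10733 with dox and 10140 without) and Tek (9277 with dox and 8799 without) differed by 0.08 log2 units each. In these bulk samples fewer cells of a type and less RNA per cell cannot be told apart.

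PDGF ligands are secreted dimers that bring together a pair of receptor tyrosine kinases, and mesenchyme, pericytes and smooth muscle are their classic targets. Pdgfra marks paraxial and cardiac mesoderm in the embryo, and Pdgfrb marks mural cells, which endothelium recruits by secreting PDGF-B. Kit belongs to the same receptor class and is known for its part in blood progenitors, mast cells, germ cells and melanoblasts, with Kit ligand supplied by stromal and endothelial cells.

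Pdgfra and Kit are neighbours on chromosome 5 in the RefSeq gene table (GRCm38.p6), with Kdr next in order. The stretches around their start sites are shown because these adjacent genes differed in opposite directions, and that of Kitl because the ligand differed in the direction opposite to its receptor. Each holds 250 bases before the start and 50 after it, from RefSeq (GRCm38.p6), printed 5' to 3' on the gene's strand. Capitals mark each match to CANNTG, the E-box that basic helix-loop-helix proteins, the class of Mesp1, recognise. RefSeq promoters were read for 6 of the 8 genes, and for Kit the first of 2 listed starts is used. Pdgfrb and Pdgfb were not among the 6, so their promoters were not examined.
Pdgfra promoter (chr5:75152001-75152300, plus strand): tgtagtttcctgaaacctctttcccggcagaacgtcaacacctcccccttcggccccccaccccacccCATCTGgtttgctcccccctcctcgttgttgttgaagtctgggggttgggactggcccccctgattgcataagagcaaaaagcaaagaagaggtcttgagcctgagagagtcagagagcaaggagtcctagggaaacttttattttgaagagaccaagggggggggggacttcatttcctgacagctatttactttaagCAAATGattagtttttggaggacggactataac
Kit promoter (chr5:75574737-75575036, plus strand): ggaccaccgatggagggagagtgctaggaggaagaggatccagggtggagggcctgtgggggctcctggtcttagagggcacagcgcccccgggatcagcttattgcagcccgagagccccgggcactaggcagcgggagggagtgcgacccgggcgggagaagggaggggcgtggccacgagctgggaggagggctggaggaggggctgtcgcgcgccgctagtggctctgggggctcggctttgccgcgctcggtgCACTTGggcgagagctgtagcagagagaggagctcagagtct
Kitl promoter (chr10:100015571-100015870, plus strand): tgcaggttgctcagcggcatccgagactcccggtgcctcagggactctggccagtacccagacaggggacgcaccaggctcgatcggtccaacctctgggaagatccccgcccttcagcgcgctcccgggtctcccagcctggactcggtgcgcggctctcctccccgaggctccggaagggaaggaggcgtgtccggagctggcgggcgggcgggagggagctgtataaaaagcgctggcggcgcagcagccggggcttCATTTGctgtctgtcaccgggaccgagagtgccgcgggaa
The Pdgfra stretch held 2 E-boxes, and those of Kit and Kitl held 1 each. The same motif occurs in 72.3% of the 32851 promoter stretches of this length in the table, so its presence is common. The sequence GATAA, the core bound by GATA factors, was searched on both strands and was in none of the 3, against 25.4% of all promoters. The Kit and Kitl stretches were richer in G and C, at 69.0% and 68.7%, than that of Pdgfra, at 51.0%. The median over all promoters was 52.7%. The GC box GGGCGG, searched on both strands, was found at 1 site for Kit and 3 for Kitl and at none for Pdgfra, against 35.7% of all promoters with at least 1. The TATA box TATAAA, searched on both strands, was found for Kitl (13.6% of all promoters) and not for the other two. None of the 4 motifs contains another, and a match describes the letters only.

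Of the 8 genes 7 passed the signal filter. With dox 3 were 2-fold or more higher (Pdgfra, Pdgfrb and Kitl), 1 was 2-fold or more lower (Kit), and 3 lay within 2-fold (Pdgfa, Pdgfb and Pdgfc). Among all 11760 genes past the filter, 5.71% were 2-fold or more higher and 2.07% were 2-fold or more lower. The median log2 difference was 0.85 over the 7 genes and 0.05 over all genes past the filter. The 0.85 is the value of Pdgfa, which reached the filter through its dox signal alone and so had to be higher. Pdgfd, dim on both arrays, was not counted.

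**Figure D1:**
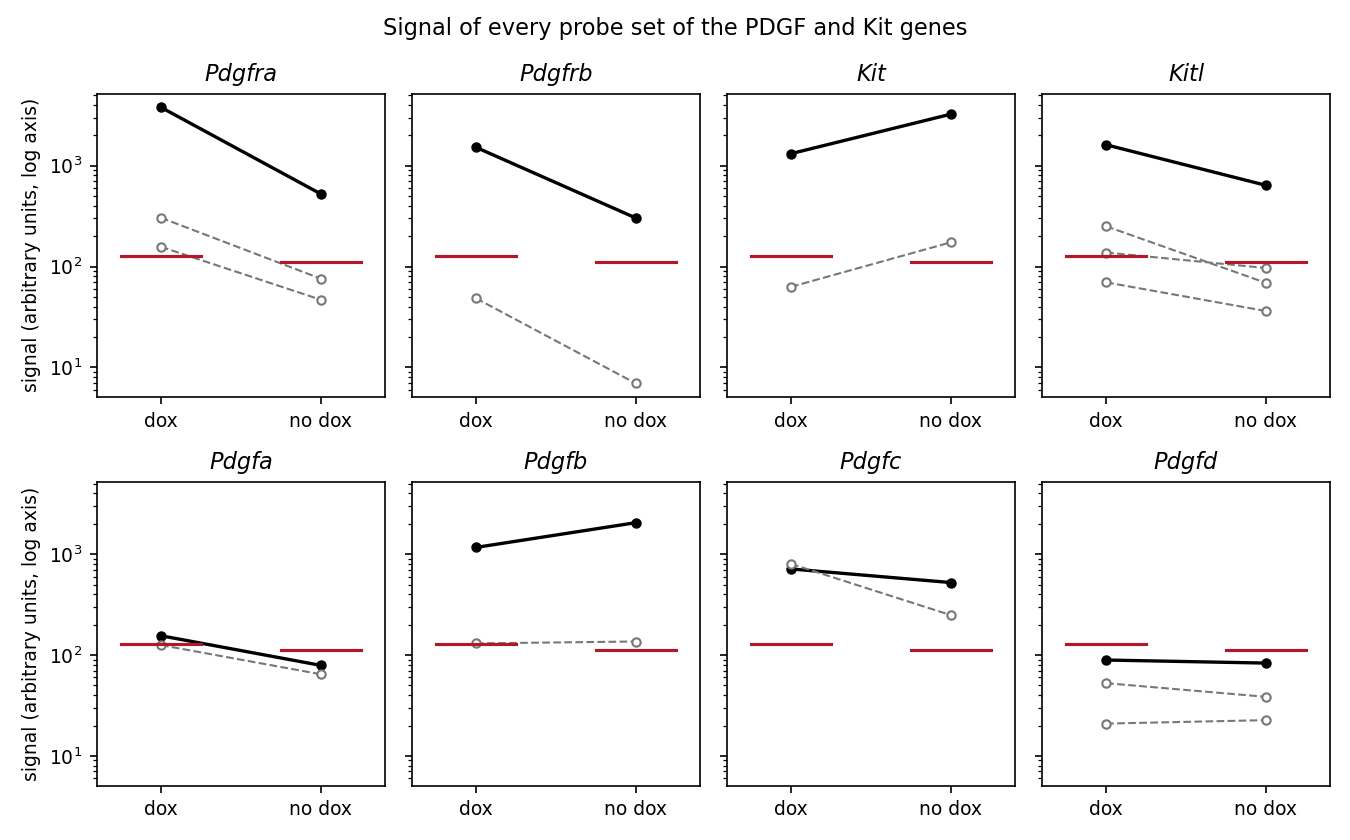
Signal of each probe set (log axis, arbitrary units) on the dox array and the no dox array, 1 panel a gene. The solid line is the brightest probe set, dashed lines are the others, and red bars mark the median signal of each array (127 with dox, 112 without). All lines of Pdgfra, Pdgfrb and Kitl are higher with dox, and both lines of Kit are lower.

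Pdgfra, the receptor for PDGF-A, PDGF-B and PDGF-C, had the largest difference of the 8 genes. Its brightest probe set gave a signal of 3793 with dox and 526 without, 7.03-fold higher (log2 difference 2.81). Another gave 305 with dox and 75.9 without (1.80), and the dimmest gave 157 with dox and 46.9 without (1.46). All 3 probe sets were 2-fold or more higher, although the dimmer pair lay below the array's median without dox and gave smaller differences. With a pseudocount of 64 the dimmest gave 0.99, just short of 2-fold. Of all genes past the filter, 104 (0.884%) had a larger positive difference than Pdgfra.

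Pdgfrb, the receptor for PDGF-B and PDGF-D, was also higher with dox. The brightest probe set gave 1521 with dox and 303 without, 4.81-fold higher (2.27). The other probe set, below the median of both arrays, gave 48.4 with dox and 6.94 without (1.49). Both Pdgfrb probe sets therefore differed in the direction of Pdgfra. A larger positive difference was found for 190 genes (1.62%).

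Kit was lower with dox by both of its probe sets. The brightest gave 1317 with dox and 3242 without, 2.44-fold lower (log2 difference -1.29). The dimmer one gave 62.9 with dox and 174 without (-1.27). The size of the dimmer one depended on the pseudocount, with -0.91 at a pseudocount of 64 and -1.45 at 1, against -1.26 and -1.30 for the brightest. A more negative difference was found for 122 genes (1.04%). The Kit signal with dox was above the array's median by the brightest probe set and below it by the other.

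Read against Kit, the difference of Pdgfra was 4.10 log2 units larger and that of Pdgfrb 3.56 larger. Over all pairs of probe sets the contrast ran from 2.72 to 4.10 for Pdgfra and from 2.76 to 3.56 for Pdgfrb. For comparison, the SD between probe sets of 1 gene corresponds to 0.53 for a difference between 2 genes. These contrasts set differences, not levels, of the receptors side by side, since signals of different probe sets are not on a common scale. A scaling of 1 array against the other moves both receptors alike and nearly cancels in the contrast.

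**Figure D2:**
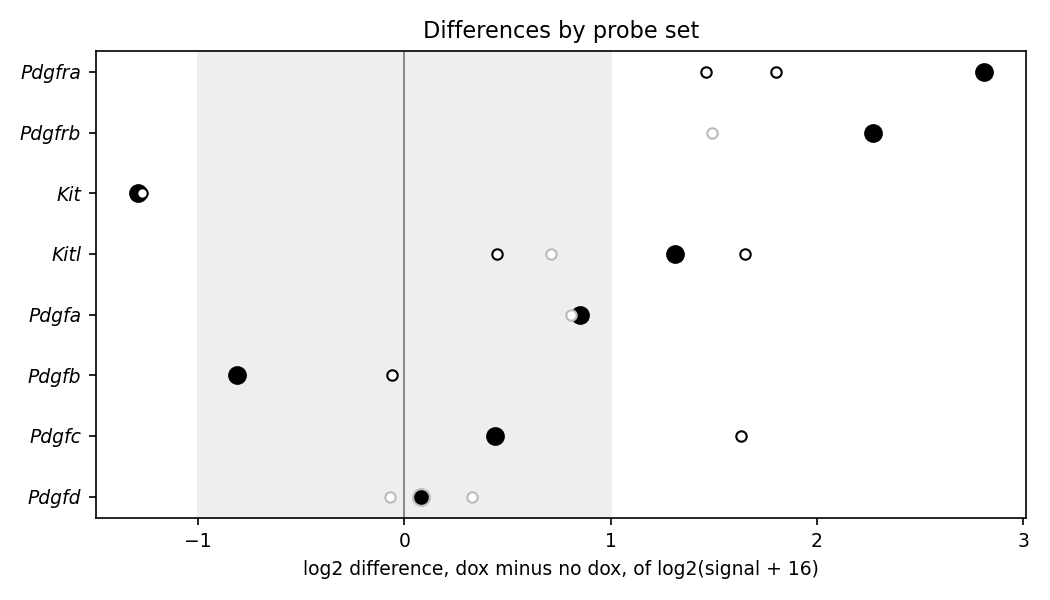
Log2 difference (dox minus no dox) of each probe set. Filled points are the brightest probe set of a gene, open points the others, and pale outlines mark probe sets below the signal filter; the grey band is within 2-fold. Pdgfra and Pdgfrb lie to the right of the band, both points of Kit to its left, and the points of Pdgfc on either side of its right edge.

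The Kit ligand gene Kitl was higher with dox, the opposite direction to its receptor. Its brightest probe set gave 1611 with dox and 639 without, 2.48-fold higher (1.31). A second gave 251 with dox and 68.9 without (1.65). The remaining probe sets lay within 2-fold, with 138 with dox and 96.7 without (0.45), and 69.7 with dox and 36.2 without (0.71). All 4 were higher with dox, and their differences spanned 0.45 to 1.65.

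Among the PDGF ligands the sign and the size varied. Pdgfb, the ligand by which endothelium attracts Pdgfrb-bearing mural cells, gave 1167 with dox and 2053 without, 1.75-fold lower (-0.81). Its dimmer probe set gave 130 with dox and 136 without (-0.06), so the lower signal rests on 1 of 2 probe sets. The ligand gene Pdgfb was thus lower by its brightest probe set in the sample where the receptor gene Pdgfrb was higher, and it stayed within 2-fold.

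Pdgfc encodes a ligand of Pdgfra that must be cut by a protease before it binds. Its brightest probe set gave 714 with dox and 523 without (0.44), and the other, of similar signal, gave 801 with dox and 249 without, 3.09-fold higher (1.63). The probe sets agreed in direction and differed in size by more than the SD between probe sets. In Affymetrix naming the suffix of the first marks a set shared by transcripts of more than one gene, and that of the other marks alternative transcripts of 1 gene. Whether Pdgfc passed 2-fold depended on which was read.

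Pdgfa, the ligand specific to Pdgfra, was dim. It gave 155 with dox and 79.0 without (0.85) by one probe set and 126 with dox and 64.5 without (0.81) by the other. Both were higher by about the same amount and short of 2-fold, and Pdgfa reached the filter through its signal with dox alone. Pdgfd, a ligand of Pdgfrb, had 3 probe sets below both medians. Its signals were 89.2 with dox and 83.2 without, 52.6 with dox and 38.5 without, and 20.9 with dox and 22.6 without. The Pdgfd differences, from -0.07 to 0.33, showed no common direction.

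Genes beside Pdgfra and Kit on the chromosome were read in the same way. In the RefSeq gene order Gsx2 lies on the far side of Pdgfra and Kdr on the far side of Kit. Pdgfra differed by 2.81, Kit by -1.29 and Kdr by 0.08. Of the 11 genes listed around them, 9 passed the filter, Kdr among them. All 9 lay within 2-fold, from -0.17 for Fip1l1 to 0.78 for Clock, with a median of 0.23. Kdr encodes Flk1, on which both samples were sorted, so its even signal cannot be read apart from the sort. Gsx2 and Nmu were dim on both arrays. Pdgfrb lies on chromosome 18 beside Csf1r, the receptor of the same class for the macrophage growth factor Csf1. Csf1r gave 207 with dox and 169 without (0.26), against 2.27 for Pdgfrb.

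**Figure D3:**
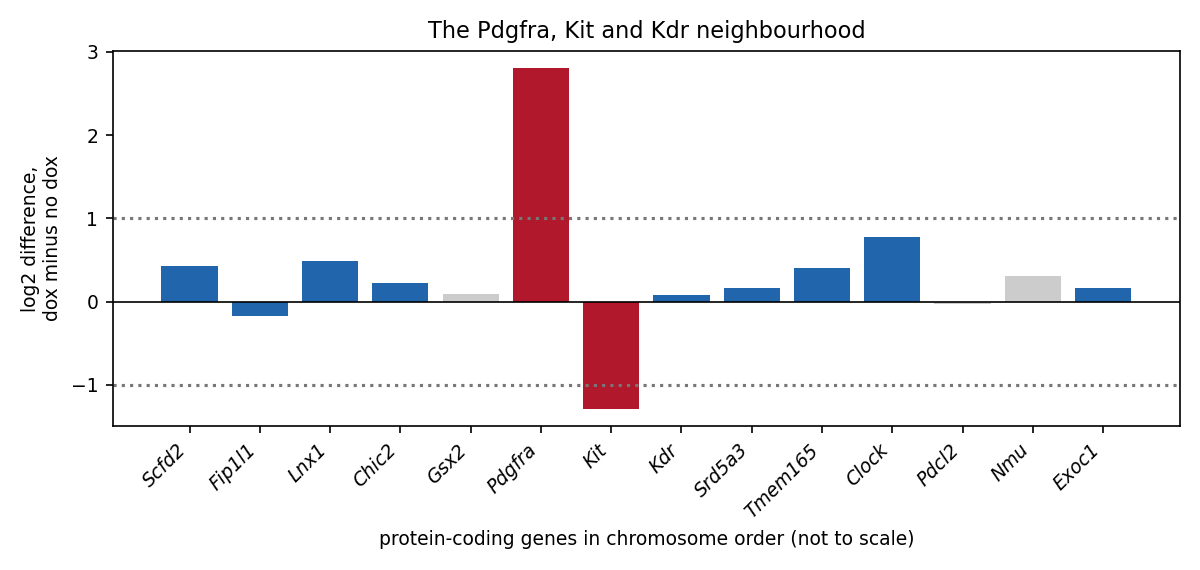
Log2 difference (dox minus no dox) of the protein-coding genes around Pdgfra and Kit, in chromosome order and not to scale. Pdgfra and Kit are red, other genes past the signal filter blue and dim genes grey; dotted lines mark 2-fold. Pdgfra (2.81) and Kit (-1.29) are the bars beyond the dotted lines.

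The other genes of the receptor class gave fewer readings. Of 5 listed relatives and their ligands, 4 had a probe set and 2 passed the filter. Csf1 gave 508 with dox and 181 without (1.41), although its other probe sets, all below the filter, went as low as -0.11. Flt3, a receptor of blood progenitors, gave 58.4 with dox and 51.5 without, and Il34, another ligand of Csf1r, gave 33.7 with dox and 22.1 without, all below the medians.

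Proteases and co-receptors that act on these ligands were higher in part. Of 11 listed genes 8 passed the filter, with a median of 0.77. Of these 3 were past 2-fold higher and 0 past 2-fold lower, against 5.71% and 2.07% of all genes past the filter. Plat, the tissue plasminogen activator, which cuts PDGF-C into its active form, gave 1724 with dox and 391 without (2.10), with -0.24 by its other probe set. Pcsk5, a proprotein convertase, gave 1547 with dox and 125 without (3.47), but its probe sets past the filter ran from -0.50 to 3.47. Nrp1, a co-receptor, gave 10992 with dox and 5233 without (1.07), with probe sets from -0.18 to 1.54. Lrp1, a receptor that associates with Pdgfrb, gave 875 with dox and 495 without (0.80). Plau and St14, which cut PDGF-D, were dim on both arrays, as was Pdgfd itself.

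The genes that relay the signal inside the cell differed little. Of 28 listed partners of PDGF receptors 24 passed the filter and by their brightest probe sets these lay within 2-fold, with a median of 0.05. The largest difference was 0.84 for Pik3r1, a regulatory subunit of PI 3-kinase (981 with dox and 542 without), followed by Gab1, a docking protein (2402 with dox and 3556 without, -0.56). Other probe sets of this pair just passed 2-fold, at 1.01 for Pik3r1 and -1.01 for Gab1. Of 15 listed genes best known from Kit signalling in blood cells 9 passed the filter, with a median of -0.13. By any amount 7 of the 9 were lower, against 44.5% of all genes past the filter. Ptpn6 (-0.10), Vav1 (-0.13) and Dok1 (-0.13), named after their values were seen, were among the 7 and near 0. Dok1 reached the filter through its signal without dox alone, so that it had to be lower. Inpp5d, a lipid phosphatase of blood cells, gave 404 with dox and 875 without (-1.08). It was the only gene of the 9 past 2-fold lower, against 2.07% of all genes past the filter. Pik3cd, a catalytic subunit of PI 3-kinase in leukocytes (-0.84), Grap (-0.82) and Plcg2 (-0.82) came next, and the dim probe sets of Pik3cd reached 0.91.

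Feedback inhibitors and early target genes were mostly even. Of 17 listed inhibitors of these receptors 15 passed the filter and 1 was 2-fold or more higher, against 5.71% of all genes past the filter. It was Spry2, a feedback inhibitor of receptor tyrosine kinases (1568 with dox and 643 without, 1.27). Dusp6, a phosphatase of ERK, differed by 0.66, and the median was 0.19. Of 16 growth factor early genes 13 passed and 1 was past 2-fold higher, again against 5.71% of all genes. It was Ccn2 (listed under its older symbol Ctgf), a matricellular protein (2356 with dox and 419 without, 2.45). The median was 0.10, and Atf3 (-0.45), Myc (-0.44) and Fosb (0.39) followed in size. Of 10 regulators of the Kit gene 6 were lower by any amount, against 44.5% of all genes past the filter, and 4 were higher (median -0.39). The 1 past 2-fold lower, against 2.07% of all genes, was Myb (98.6 with dox and 809 without, -2.85). Myb reached the filter through its signal without dox alone, so that it had to be lower. Lyl1 differed by -0.93, Gata1 by -0.78 and Lmo2 by -0.60, and the higher genes ran from 0.12 for Ldb1 to 0.39 for Mitf (both chosen after seeing their values).

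**Figure D4:**
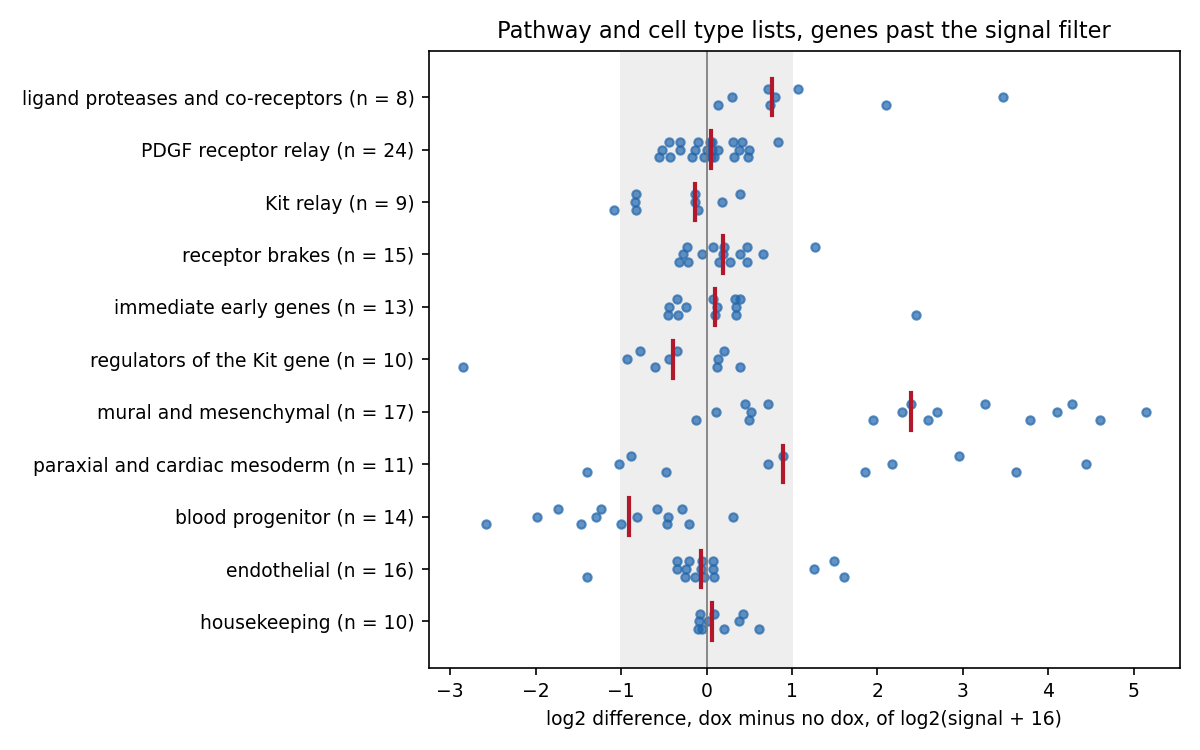
Log2 difference (dox minus no dox) of each gene past the signal filter in 11 of the lists, with a red bar at the median. The grey band is within 2-fold. The PDGF receptor relay lies wholly inside the band (median 0.05). The mural and mesenchymal median (2.39, or 0.72 with a filter on both arrays) lies to its right. The blood progenitor median (-0.91, or -1.23 with a filter on both arrays) is drawn inside it near the left edge.

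Markers of other cells moved with the receptors, and their part in the receptor differences was not tested. Of 25 mural and mesenchymal genes 17 passed the filter. Of these 11 lay past 2-fold higher and 0 past 2-fold lower, against 5.71% and 2.07% of all genes past the filter. The summed signal of the list was 49450 with dox and 8978 without. Acta2 and Col3a1 made up 51.1% of that sum with dox, and a sum over probe sets weights the bright ones. The median of the 17 was 2.39, but 6 of them reached the filter through their dox signal alone. These were Tagln, Lum, S1pr3, Tcf21, Cnn1 and Col1a1, which had to be higher, and all 6 are among the 11. The median was 0.72 with a filter on both arrays, 0.74 with no filter and 1.42 over all probe sets. The median over all genes past the filter was 0.05. Tagln (5.14), Lum (4.61), Col3a1 (4.28) and S1pr3 (4.10) had the largest differences, and all of these but Col3a1 had a signal without dox below the median, where the pseudocount sets the size. Mural markers varied beside Pdgfrb. Rgs5, a pericyte gene chosen after its value was seen, gave 3498 with dox and 566 without (2.59), whereas Cspg4, the NG2 proteoglycan of pericytes, was dim at 59.6 with dox and 76.8 without. Cnn1 was at the floor of 1 without dox. Of 18 paraxial and cardiac mesoderm genes 11 passed, 5 were 2-fold or more higher and 2 lower (median 0.89). The shares among all genes past the filter were, as above, 5.71% and 2.07%. Mesp1, whose transgene dox turns on, is one of the 5, and without it the summed signal of the list was 29224 with dox and 12537 without. Tbx20 (4.44) and Gata4 (3.62) led, and Gata4 reached the filter through its dox signal alone. The 2 lower genes, named after their values were seen, were Isl1, of second heart field progenitors (-1.40), and the paraxial gene Tcf15 (528 with dox and 1085 without, -1.02). The paraxial genes Tbx6, Msgn1 and Meox1 were dim, and Mesp2 was at the floor of 1 with dox. Of 10 cardiomyocyte genes 7 passed the filter, 4 of them, Nebl, Myl4, Myh7 and Myl7, through their dox signal alone, so that these had to be higher. The median of the 7 was 2.70, ran from 1.89 to 3.42 over the alternatives, and was 2.06 with a filter on both arrays (summed signal of the list 7707 with dox and 1839 without).

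Beside Kit, blood progenitor genes were lower. Of 17 listed genes 14 passed the filter and 13 of these were lower by any amount, against 44.5% of all genes past the filter. Past 2-fold lower were 7, against 2.07% of all genes. Gfi1b, Hba-x, Pf4, Spn and Gfi1 reached the filter through their signal without dox alone, so that they had to be lower. Gfi1b and Hba-x are among the 7. The median was -0.91, ran from -1.29 to -0.65 over the alternatives, and was -1.23 with a filter on both arrays. The summed signal was 10132 with dox and 18986 without. Hbb-bh1 (-2.58), Gfi1b (-1.99), Alox5ap (-1.74) and Mpo (-1.47) led. Of 11 mast cell, germ cell and melanoblast genes 2 passed the filter, Ddx4 (204 with dox and 485 without, -1.19) and Prdm1 (-0.33). Prdm1 reached the filter through its signal without dox alone, and the list summed to 798 with dox and 1090 without. The defining mast cell genes Cpa3 (22.2 with dox and 23.1 without) and Fcer1a (2.41 with dox and 2.00 without) were below the medians of both arrays. Endothelial genes had a median of -0.06 over 16, with 3 past 2-fold higher and 1 lower. Among all genes past the filter these shares were 5.71% and 2.07%. The 3 higher were Plvap (1.61), Vwf (1.49) and Eng (1.26), and the 1 lower was Cldn5 (-1.40). Without Kdr and Tek, the genes of the sort, the median of the other 14 was -0.11 and their summed signal 57743 with dox and 57962 without. Of 13 genes of undifferentiated cells, endoderm and neural tissue 3 passed the filter and all 3 lay within 2-fold (summed signal 1214 with dox and 1475 without), and all 10 measured housekeeping genes lay within 2-fold (median 0.06).

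Each of the 7 counted genes kept its direction under every alternative setting that gave a value for it. Only a rescaling of the arrays could have changed a direction. Pseudocounts and filters cannot, and the probe sets of each of these genes agreed in sign. Kit ran from -1.47 to -1.26 over these settings and Pdgfra from 2.02 to 2.85, whereas Pdgfc ran from 0.26 to 1.63 and so lay on both sides of 2-fold.

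**Figure D5:**
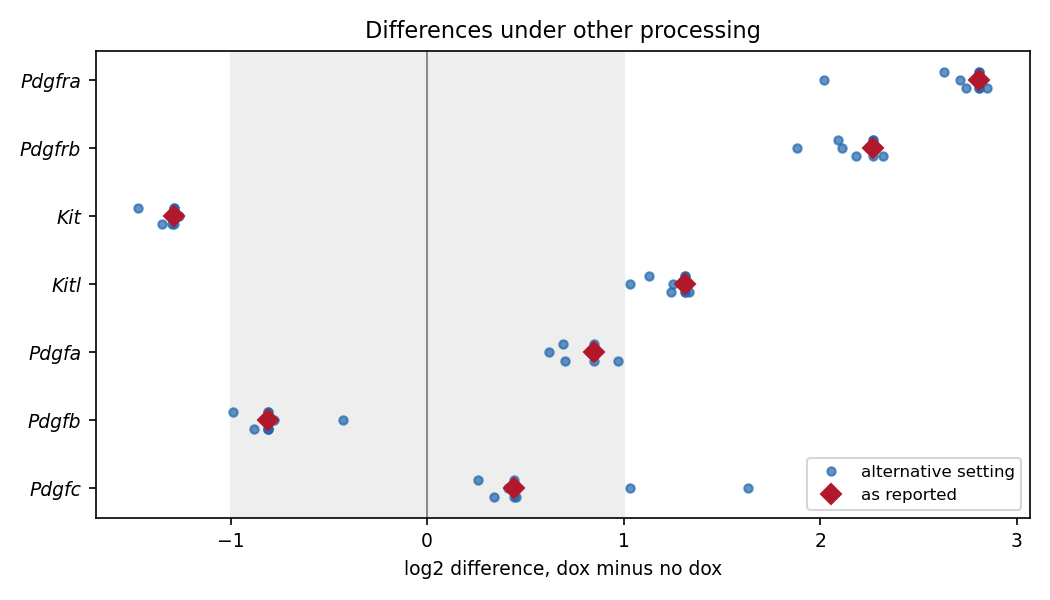
Log2 difference (dox minus no dox) of the 7 genes past the signal filter, as reported (red diamonds) and under the alternative settings that gave a value (blue points). The grey band is within 2-fold. Pdgfra, Pdgfrb and Kitl stay to the right of the band and Kit to its left, while Pdgfc crosses 2-fold when its other probe set enters.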

How the data were processed

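Gene expression was measured in 2 samples, 1 array per condition. Per the labels' protocols, 100 ng of total RNA from sorted cells was made into biotinylated RNA. The deposited table holds linear signal intensity values for 45037 probe sets, whose summary method and scaling by the authors are not given in the sources used here. Detection calls and control probe sets were not used here.

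Platform annotation gave 34945 probe sets 1 gene symbol, 932 several and 9160 none; probe sets with several or none were left unnamed. Of the named probe sets 34741 matched RefSeq (GRCm38.p6) by gene number, with 0 symbols changed. The deposited intensities were analysed as log2(signal + 16) without further scaling, using Python 3.11.15, pandas 2.3.3 and NumPy 2.4.6. The procedure was tested on simulated data.

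The members, 16 further gene lists and all settings were chosen with earlier results of these data known. Named genes are the 8 members, Mesp1, Kdr and Tek, and up to 4 genes a list with the largest absolute difference past the filter; of lists with 5 or fewer entries every measured gene is named. Other genes were chosen after their values were seen: those said to be so in the text, those named as dim or at the floor, and Fip1l1 at the low end of the neighbours. Of the list entries 2 were matched through a synonym.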

Additional observations from a re-analysis of the deposited data

How the results depend on the processing

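No replicate could be left out, and depth here means signal. Pdgfa, Pdgfd and the dimmer probe sets of Pdgfra, Pdgfrb, Kit and Kitl lie near or below the median of at least 1 array. There the pseudocount sets the size of a difference. No paired analysis was possible because each condition has 1 array. All 10 alternatives (9 planned with earlier results known, 1 added later) kept the direction of the 7 members that passed the filter wherever they gave a value. Most could not have done otherwise. A pseudocount or a filter cannot change a sign, and the probe sets of each of the 7 agreed in direction. Only a rescaling of the arrays, by median or quantile, could have changed one. Pdgfra ran from 2.02 to 2.85, Pdgfrb from 1.88 to 2.32, Kit from -1.47 to -1.26 and Kitl from 1.03 to 1.33. Pdgfb ran from -0.99 to -0.43 and Pdgfa from 0.62 to 0.97.

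The mean over all probe sets gave 2.02 for Pdgfra, 1.88 for Pdgfrb and 1.03 for Pdgfc, which brings dimmer probe sets in, and the contrasts with Kit were then 3.30 for Pdgfra and 3.16 for Pdgfrb. Pdgfc was 1.63 without the shared probe sets (suffixes _s_at and _x_at), the added alternative. Between 2 and 4 members were 2-fold or more higher. Without all probe sets of suffixed names (_a_at, _s_at, _x_at) 0 members were 2-fold or more lower, because both probe sets of Kit carry such a name and Kit then had no value, as had Pdgfrb past the filter; the contrasts with Kit could not be computed.

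Scaling the arrays to the same median moved the median of all genes past the filter from 0.05 to -0.13. The lower count was then 402 instead of 243, and the higher share of called genes 56.8% instead of 73.4%. Relative to the median of all genes Pdgfra then differed by 2.76, against 2.77 as reported, and Kit by -1.34 in both. Without the signal filter 372 genes were lower. With a filter on both arrays 417 were higher instead of 671, and at the 75th percentile 350 were higher and 135 lower.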
